A study of Mus musculus with 9 samples.

Results

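The immediate early transcription factors studied here are 10 genes, Fos, Fosb, Jun, Junb, Atf3, Egr1, Egr2, Nr4a1, Nr4a2 and Ier2. They were taken by exact gene symbol from 22180 genes measured with 1 or more unambiguous probe sets, and each of the 10 was read by 1 probe set. MSC2, a single clone of mesenchymal stromal cells from C57BL/6 bone marrow (mice aged 6 weeks), was profiled in 3 states with 3 arrays in each. Undifferentiated MSC2 grew in α-MEM that held no ascorbic acid. The 2 induced states were confluent MSC2 kept for 14 or 28 days in DMEM with 0.1 μM dexamethasone, 0.2 mM ascorbic acid 2-phosphate, 10 mM β-glycerophosphate and 1 mM sodium pyruvate. All 3 states had medium with 10% FBS. The labels call the serum MSC-qualified in the growth protocol and give no such grade in the induction protocol. Undifferentiated and induced cultures therefore differ in medium, confluence and age together, and uninduced cultures aged 14 or 28 days were not analysed here. The labels say that the medium was changed every 3 to 4 days and do not give the time between the last change and RNA isolation.

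Immediate early genes are switched on within minutes of a stimulus such as serum, growth factors, stretch or stress, from factors already in the cell and with no need for new protein, and their messages decay fast. Kinases of the MAP kinase family act on serum response factor and its ETS partners at the CArG box, and on CREB-type factors at the cAMP response element. In bone cells the products are known from several settings: FOS is needed for osteoclast formation and gives bone tumours in mice when overexpressed, splice forms of FOSB raise bone mass in mice, and JUNB is needed for osteoblast proliferation. Glucocorticoids such as dexamethasone are known to restrain AP-1 activity through their receptor.

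The promoters of members that changed between the states are shown here so that the letters can be set beside the measurements. RefSeq sequences of GRCm38.p6 were at hand for 8 of the 10 genes, without Egr1 and Ier2, and each line gives the 250 bases before the annotated start on the gene's own strand. Capitals mark the CArG box and TGACG, the core of the cAMP response element, read on either strand. The coordinates are chr12:85473640-85473889 (+) for Fos, chr8:84978749-84978998 (-) for Junb, chr10:67537619-67537868 (+) for Egr2, chr15:101266596-101266845 (+) for Nr4a1, chr2:57124004-57124253 (-) for Nr4a2 and chr1:191183334-191183583 (-) for Atf3. Egr2 has 5 annotated starts, 3 of them with overlapping windows, and the most upstream of these 3 is shown.
Fos: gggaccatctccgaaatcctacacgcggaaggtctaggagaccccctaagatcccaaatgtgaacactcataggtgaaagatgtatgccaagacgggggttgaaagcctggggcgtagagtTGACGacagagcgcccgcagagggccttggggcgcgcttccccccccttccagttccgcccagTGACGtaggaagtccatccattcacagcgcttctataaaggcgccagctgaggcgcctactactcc
Junb: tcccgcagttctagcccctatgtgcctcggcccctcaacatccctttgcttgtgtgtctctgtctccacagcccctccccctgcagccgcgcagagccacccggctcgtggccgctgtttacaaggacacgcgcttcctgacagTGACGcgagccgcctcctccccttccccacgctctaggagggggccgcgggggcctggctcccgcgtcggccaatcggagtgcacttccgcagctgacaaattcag
Egr2: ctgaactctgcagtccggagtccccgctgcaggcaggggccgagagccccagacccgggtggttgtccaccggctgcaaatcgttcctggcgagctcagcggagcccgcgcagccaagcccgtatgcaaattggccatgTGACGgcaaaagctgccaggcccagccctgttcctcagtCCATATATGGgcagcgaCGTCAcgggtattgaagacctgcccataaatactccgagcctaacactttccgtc
Nr4a1: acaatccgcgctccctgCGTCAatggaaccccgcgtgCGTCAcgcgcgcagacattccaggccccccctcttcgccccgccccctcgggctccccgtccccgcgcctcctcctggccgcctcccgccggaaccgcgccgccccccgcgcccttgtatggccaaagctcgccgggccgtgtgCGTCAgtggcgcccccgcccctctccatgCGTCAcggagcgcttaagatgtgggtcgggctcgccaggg
Nr4a2: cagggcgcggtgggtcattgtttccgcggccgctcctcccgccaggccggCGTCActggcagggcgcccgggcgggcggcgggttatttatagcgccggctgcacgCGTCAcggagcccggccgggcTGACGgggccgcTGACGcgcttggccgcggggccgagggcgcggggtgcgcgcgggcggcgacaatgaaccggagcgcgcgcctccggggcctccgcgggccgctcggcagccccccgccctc
Atf3: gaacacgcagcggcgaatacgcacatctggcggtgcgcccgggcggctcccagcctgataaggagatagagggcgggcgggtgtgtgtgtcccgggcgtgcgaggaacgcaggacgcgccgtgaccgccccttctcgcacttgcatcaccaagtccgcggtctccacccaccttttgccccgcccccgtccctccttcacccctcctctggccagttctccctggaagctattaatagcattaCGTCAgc

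Motifs were searched on both strands in windows of 300 bases, 250 before and 50 after each start, 12 windows in all because Egr2 has 5. A gene was counted if any of its windows held the motif, and the share of all 27025 genes with a window, counted in the same way, is given beside it. The core TGACG was found in 7 of the 8 genes and was not in the window of Jun. Of all genes 23.0% held it. By window it was in 9 of the 12, and not in 2 of the 5 of Egr2, against 20.8% of all 32851 windows. The 3 overlapping windows of Egr2 hold the same copies of the core and the same CArG box, so counts by window repeat them. Nr4a1 and Nr4a2 had 4 copies each, Fos and the Egr2 window had 2, and Junb, Atf3 and Fosb had 1. The copy nearest the start lay at -66 in Fos, -55 in Egr2, -40 in Nr4a1 and -7 in Atf3. A CArG box was found for Egr2 alone among the 8, at -72 in the window shown and in 4 of its 5 windows, against 1.81% of all genes and 1.63% of all windows. The EGR site GCGNGGGCG was found for Fosb, Nr4a1 and Nr4a2, against 6.27% of all genes. The full element TGACGTCA, the AP-1 site TGANTCA and the NR4A site AAAGGTCA were in none of the 8, against 2.03%, 8.97% and 1.70% of all genes. The core is part of the full element, and a match is a match of letters only. Egr1 and Ier2 were not searched. Bases outside the windows were not searched either, so a gene without a match may hold the motif farther out.

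Each value is a log2 signal relative to that gene's median over the 9 arrays, so 0 is that median and the values compare states of 1 gene. They give no level that could be set against another gene. A moderated F test in limma found that 8 of the 10 genes differed among the 3 states at an adjusted p under 0.05, against 39.2% of all genes. Fosb (adjusted p = 0.111) and Jun (adjusted p = 0.536) did not pass it. At 14 days against undifferentiated cells 6 of the 10 were called at an adjusted p under 0.05, 1 up and 5 down, against 35.7% of all genes called, 18.2% up and 17.5% down. At 28 days against undifferentiated cells 8 were called, 5 up and 3 down, against 39.9% of all genes, 20.4% up and 19.5% down. Between 14 and 28 days 6 were called, all up and 0 down, against 7.39% of all genes called, 2.72% up and 4.67% down. The 3 comparisons share arrays with each other, so a call in one is not independent of a call in the next. Quantile normalization again gives every array the same distribution. The SD over genes on an array was 0.401 to 0.41 in undifferentiated cells, 0.0885 to 0.124 at 14 days and 0.15 to 0.166 at 28 days. By construction this alternative therefore widens the 14-day values most, and sizes under it are not comparable with the others. It was applied to values already centred per probe set, so a call kept or lost under it cannot decide whether the main call holds. At 14 days against undifferentiated cells the members' calls after quantile normalization again were 0 up and 4 down.

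**Figure D1:**
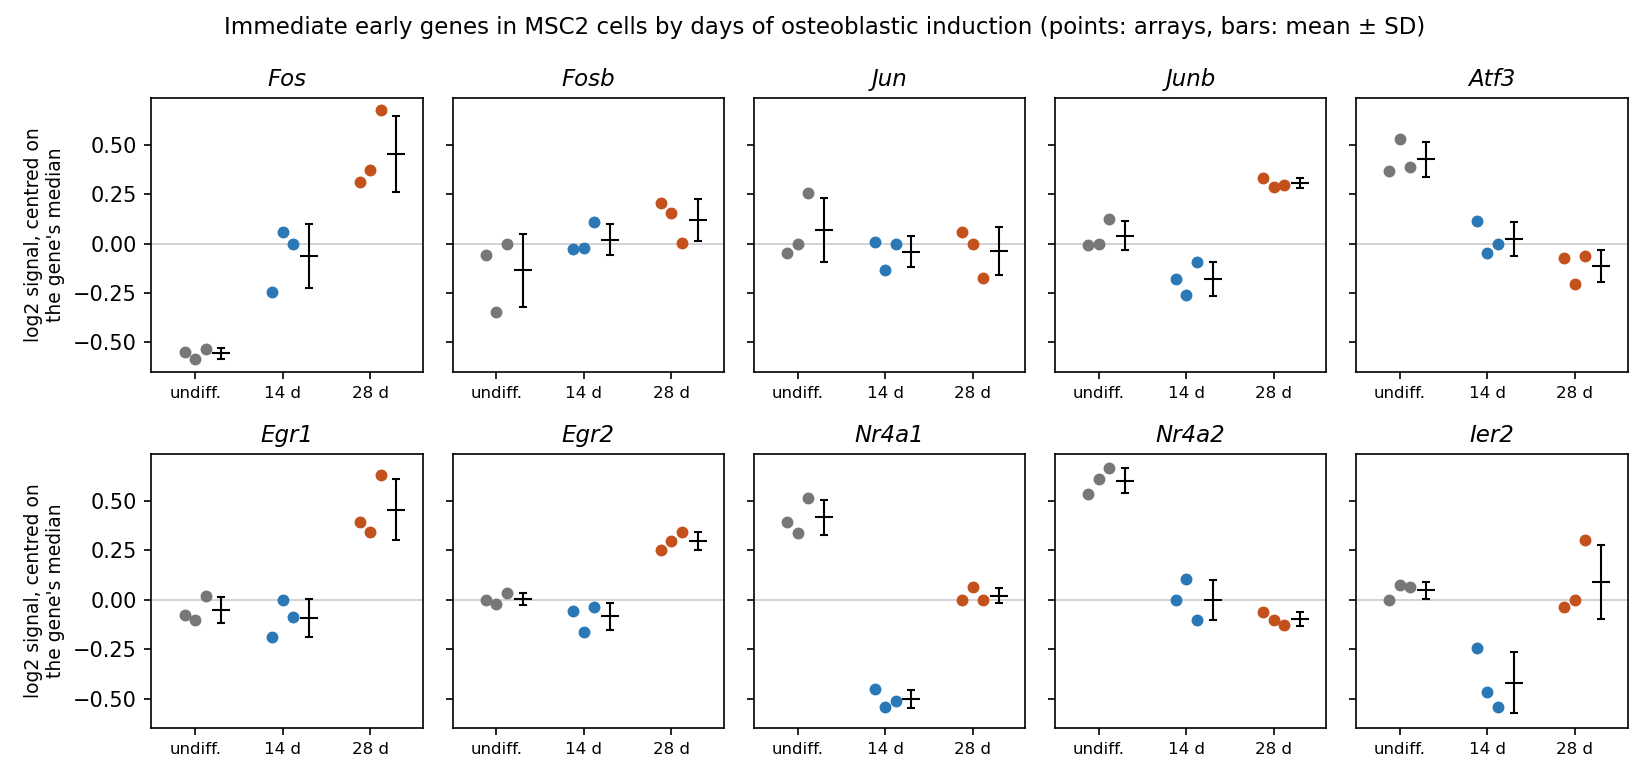
Centred log2 signal (vertical axis) of the 10 genes in undifferentiated MSC2 and after 14 and 28 days of osteoblastic induction (horizontal axis), with 1 point for each array and bars for the mean ± SD of 3 arrays. Fos climbs over the 3 states, Nr4a1, Ier2 and Junb are lowest at 14 days, Egr1 and Egr2 are high at 28 days, and Nr4a2 and Atf3 are high in undifferentiated cells.

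Among those of the 10 that are AP-1 genes, which encode leucine zipper proteins that bind DNA in dimers, Fos moved most. Fos (probe set 17277387) stood at -0.55, -0.58 and -0.53 on the undifferentiated arrays, at -0.24, 0.06 and 0 on the 14-day arrays and at 0.31, 0.37 and 0.67 on the 28-day arrays. The 3 states did not overlap, and each later state lay above the one before. The log2 fold change at 28 days against undifferentiated cells was 1.01 (SE 0.10, limma adjusted p = 1.22e-05), a 2.01-fold rise. Fos was the only one of the 10 genes to reach a called 2-fold change, which 6.19% of all genes did in that comparison. At 14 days against undifferentiated cells and between 14 and 28 days 0 of the 10 did, against 4.71% and 0.108% of all genes. Its steps were 0.49 at 14 days against undifferentiated cells (SE 0.10, adjusted p = 0.00248) and 0.51 between 14 and 28 days (SE 0.10, adjusted p = 0.0111). After quantile normalization again the step at 14 days was 0.15 and was not called (adjusted p = 0.611).

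Fosb, a close relative of Fos, and Jun, its usual partner, moved little. Fosb (probe set 17487211) read -0.06, -0.34 and 0 in undifferentiated cells, -0.03, -0.02 and 0.11 at 14 days and 0.21, 0.16 and 0.0025 at 28 days. Only the undifferentiated and 28-day states did not overlap, and by a margin of 0.0025. Over all genes 46.6% did not overlap in that comparison, and 8 of the 10 did not. Fosb was called in 1 comparison, 28 days against undifferentiated cells, by 0.26 on the log2 scale (SE 0.09, limma adjusted p = 0.045). That call was lost on leaving out any of 7 of the 9 arrays, all but undifferentiated replicate 3 and day-28 replicate 3, with adjusted p-values of 0.0526 to 0.143. The difference ran from 0.15, without undifferentiated replicate 2, to 0.32.

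Jun (probe set 17427312) read -0.05, 0 and 0.26 in undifferentiated cells, 0.01, -0.13 and 0 at 14 days and 0.06, 0 and -0.17 at 28 days. All 3 states overlapped. Its log2 fold changes were -0.11 at 14 days (95% interval -0.30 to 0.08), -0.11 at 28 days (-0.30 to 0.09) and 0.0039 between them (-0.19 to 0.20), with limma adjusted p-values of 0.406, 0.393 and 0.987. The intervals bound a change of Jun at 0.30 on the log2 scale and do not show that it was unchanged.

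Junb, which encodes a JUN relative that tempers JUN at many sites, dipped and then rose. Junb (probe set 17511259) read -0.0053, 0 and 0.12 in undifferentiated cells, -0.18, -0.26 and -0.09 at 14 days and 0.33, 0.29 and 0.30 at 28 days. The states did not overlap: 14 days was lowest and 28 days highest. The log2 fold change was -0.22 at 14 days against undifferentiated cells (SE 0.05, limma adjusted p = 0.0092), 0.27 at 28 days against undifferentiated cells (adjusted p = 0.00238) and 0.48 between 14 and 28 days (adjusted p = 0.000511). The 14-day value was -0.54 after quantile normalization again, and the 28-day call against undifferentiated cells was then lost (0.43, adjusted p = 0.108).

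Atf3, which encodes a stress-induced member of the same superfamily that often represses, went the other way. Atf3 (probe set 17231033) read 0.37, 0.53 and 0.39 in undifferentiated cells, 0.12, -0.05 and 0 at 14 days and -0.07, -0.21 and -0.06 at 28 days. The undifferentiated arrays lay above all induced arrays, and those of 14 and 28 days came close without overlap. Atf3 fell by 0.40 on the log2 scale at 14 days (SE 0.06, limma adjusted p = 0.000483) and by 0.54 at 28 days (adjusted p = 4.96e-05), both against undifferentiated cells. The difference between 28 and 14 days was -0.14 (adjusted p = 0.269). Quantile normalization again left the 14-day value at -0.23, below the call (adjusted p = 0.0947).

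EGR genes encode zinc finger factors that bind GC-rich sites. Egr1, a growth factor and stretch responder, and Egr2, known for its part in nerve myelination and also expressed in bone-forming cells, both rose late. Egr1 (probe set 17349514) read -0.07, -0.10 and 0.02 in undifferentiated cells, -0.19, 0 and -0.09 at 14 days and 0.39, 0.34 and 0.63 at 28 days. Its 28-day arrays lay above the other 6, which overlapped. Egr1 rose by 0.55 between 14 and 28 days (SE 0.08, limma adjusted p = 0.00226) and by 0.51 at 28 days against undifferentiated cells (adjusted p = 0.000375), while 14 days against undifferentiated cells gave -0.04 (95% interval -0.22 to 0.14, adjusted p = 0.778).

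Egr2 (probe set 17233993) read 0, -0.02 and 0.04 in undifferentiated cells, -0.06, -0.16 and -0.03 at 14 days and 0.25, 0.30 and 0.34 at 28 days. Again the 28-day arrays stood above all others. Egr2 rose by 0.38 between 14 and 28 days (SE 0.05, limma adjusted p = 0.000849) and by 0.29 at 28 days against undifferentiated cells (adjusted p = 0.000456). The 14-day difference from undifferentiated cells was -0.09 (adjusted p = 0.193), although the arrays of those states did not overlap, as was the case for 44.8% of all genes. Of the other EGR genes on the lists, Egr3 rose by 0.45 between 14 and 28 days (adjusted p = 0.0109) and Egr4 was at 0.13 (adjusted p = 0.416).

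NR4A genes encode orphan nuclear receptors whose activity is set mainly by their amount. Nr4a1 (probe set 17315178) read 0.40, 0.34 and 0.52 in undifferentiated cells, -0.45, -0.54 and -0.51 at 14 days and 0, 0.06 and 0 at 28 days. The states were apart, with 14 days lowest and 28 days in between. Nr4a1 fell by 0.92 on the log2 scale at 14 days against undifferentiated cells (SE 0.05, limma adjusted p = 2.22e-07), a 1.89-fold change and the largest of the 10 genes in that comparison, and -1.76 after quantile normalization again. Between 14 and 28 days it rose by 0.52 (SE 0.05, adjusted p = 0.000234), and at 28 days it was still 0.40 below undifferentiated cells, a log2 fold change of -0.40 (adjusted p = 0.000115). Quantile normalization again left that last value at -0.22, without a call (adjusted p = 0.499).

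Nr4a2, a receptor known to act on osteoblast genes and in dopamine neurons, fell and stayed low. Nr4a2 (probe set 17385374) read 0.54, 0.61 and 0.67 in undifferentiated cells, 0, 0.10 and -0.10 at 14 days and -0.06, -0.10 and -0.13 at 28 days. The undifferentiated arrays stood alone, and the 14-day and 28-day arrays overlapped. The log2 fold changes were -0.60 at 14 days (SE 0.06, limma adjusted p = 1.17e-05) and -0.70 at 28 days (adjusted p = 2.99e-06) against undifferentiated cells, and -0.10 for 28 days minus 14 days (95% interval -0.23 to 0.03, adjusted p = 0.392). After quantile normalization again the values against undifferentiated cells were -0.33 at 14 days (adjusted p = 0.0352) and -0.45 at 28 days (adjusted p = 0.0074). Between 14 and 28 days the 95% interval for Nr4a1 was 0.41 to 0.64, and the difference between the 2 genes in that comparison was not tested. The third member of the family, Nr4a3, fell by 0.17 at 14 days (adjusted p = 0.0176) and was at -0.03 at 28 days (adjusted p = 0.64), both against undifferentiated cells.

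Ier2, which encodes a small nuclear protein induced by growth factors, dipped at 14 days. Ier2 (probe set 17511130) read 0, 0.08 and 0.07 in undifferentiated cells, -0.25, -0.47 and -0.54 at 14 days and -0.04, 0.0011 and 0.31 at 28 days. The 14-day arrays lay below the other 6, and the undifferentiated and 28-day arrays overlapped. Ier2 fell by 0.47 at 14 days against undifferentiated cells (SE 0.10, limma adjusted p = 0.00309), rose by 0.51 between 14 and 28 days (SE 0.10, adjusted p = 0.0107) and was at 0.04 at 28 days against undifferentiated cells (95% interval -0.18 to 0.26, adjusted p = 0.787). Without day-14 replicate 2 the call between 14 and 28 days was lost (0.48, adjusted p = 0.0504). The 14-day value was -1.37 after quantile normalization again.

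**Figure D2:**
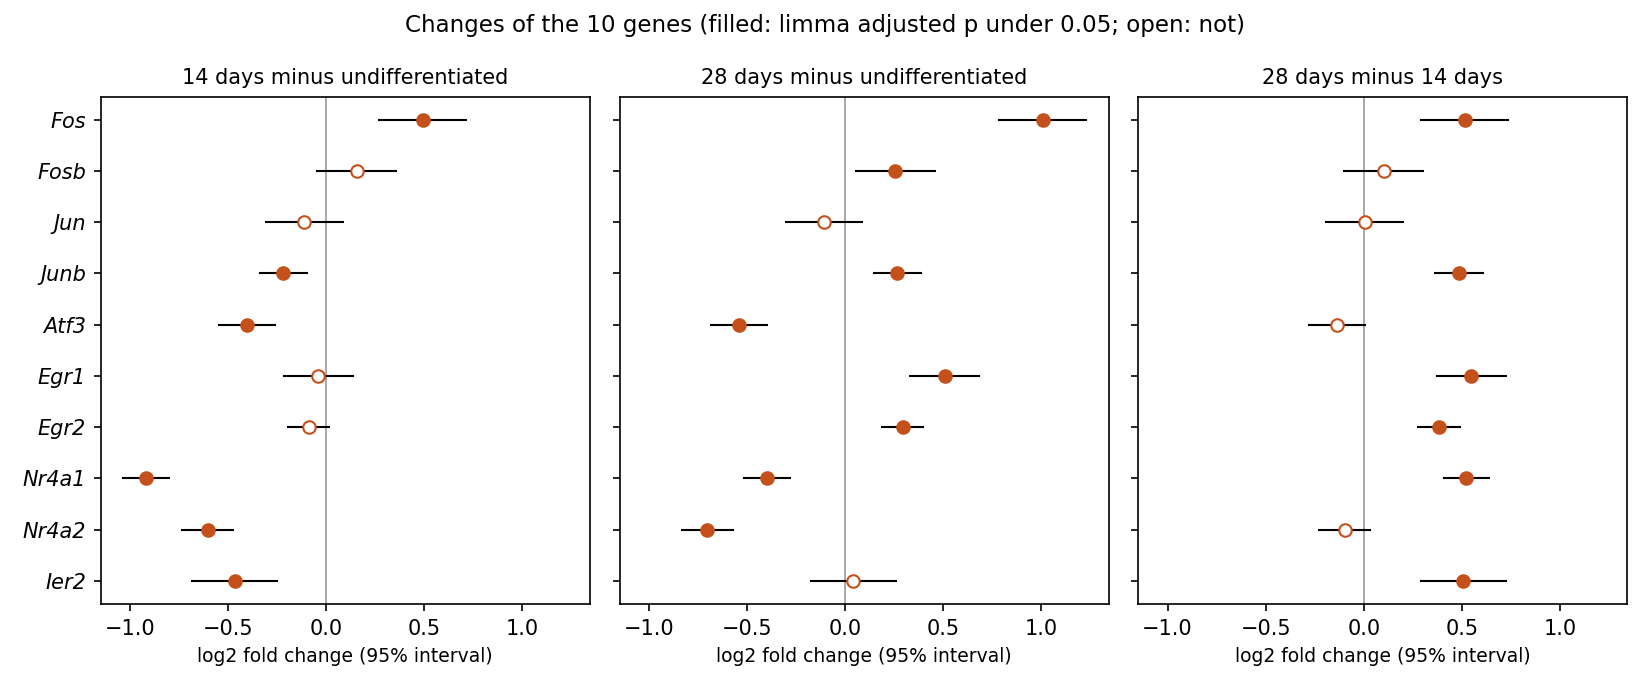
Log2 fold changes (horizontal axis) of the 10 genes (vertical axis) in the 3 comparisons, with the 95% interval of the limma fit as a line and a filled point where the adjusted p was under 0.05. In the right panel, 28 days minus 14 days, Fos, Junb, Egr1, Egr2, Nr4a1 and Ier2 lie between 0.38 and 0.55 and the other 4 between -0.14 and 0.10.

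The late rise was the feature that most of the 10 shared. The log2 fold changes of Fos, Junb, Egr1, Egr2, Nr4a1 and Ier2 between 14 and 28 days ran from 0.38 to 0.55. The arrays of both states did not overlap for 7 of the 10 genes, against 24.4% of all genes. These were the 6 and Atf3, which was lower at 28 days. The 6 were picked by their call in this comparison, so their lack of overlap adds nothing to that call. High ranks by size follow in part from the same choice. Ranked by the size of change among 22180 genes, Egr1 was 249th, Nr4a1 297th, Fos 306th, Ier2 316th, Junb 349th and Egr2 594th. Atf3 was 4761st, Fosb 7176th, Nr4a2 7418th and Jun 21426th. The median over the 10 genes was 0.43, against 0.0018 over all genes. At 14 days against undifferentiated cells the median was -0.16, against 0.0048 over all genes, and at 28 days it was 0.15, against 0.02. After quantile normalization again the 6 values were 0.64 to 1.54, all called, with the stretch that this scaling gives by construction. At an adjusted p under 0.01, 4 of the 6 were called, without Fos (0.0111) and Ier2 (0.0107). The 6 rises had 3 different starting points: Junb, Nr4a1 and Ier2 had fallen at 14 days, Fos had risen, and Egr1 and Egr2 had not been called.

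Within a state, the highest array was counted over the 10 genes. Undifferentiated replicate 3 was the highest of its 3 arrays for 8 of the 10 genes, and day-28 replicate 3 was the highest of its state for 5, among them Fos, Egr1 and Ier2. The same count was not made over all genes, so these numbers do not show that an array stood apart for this list. Without undifferentiated replicate 3 the members' calls stayed at 6, 8 and 6 in the 3 comparisons, and without day-28 replicate 3 they also numbered 6, 8 and 6. In a stricter test, against a 1.5-fold change, 2 calls were made over the 10 genes and 3 comparisons: Nr4a1 at 14 days (adjusted p = 0.000899) and Fos at 28 days (adjusted p = 0.0108), both against undifferentiated cells. The changes of the other genes were called as differences from 0 and not as changes beyond 1.5-fold.

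The 2 genes closest in profile to a member were found by the root mean square difference over the 9 arrays. Symbols of predicted or unnamed genes, of small RNAs and of olfactory and vomeronasal receptors were left out of this search. Egr2 was the nearest gene to Junb, at 0.071, and the only gene of the list among those found. Nearest to Ier2 was Nr1d1, a circadian repressor, at 0.10, and nearest to Egr1 was Ct55, at 0.090. Nearest to Fos were Tmem108, at 0.096, and Aldh2, a mitochondrial aldehyde dehydrogenase, at 0.11. Herpud1, a gene of the endoplasmic reticulum stress response, lay 0.069 from Egr2 and Osgin1 lay 0.070 from it. Junb was thus not among the 2 genes nearest to Egr2. For Nr4a1 the nearest was H4c9, at 0.12, a histone gene with close copies and an uncertain value. Atf3 lay 0.035 from Elac2 and Nr4a2 lay 0.050 from Sfswap. With 9 arrays in 3 states, many genes share such a profile.

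Other AP-1 family genes were called in both directions against undifferentiated cells. Of 14 measured, 3 rose and 4 fell at 14 days and 4 rose and 4 fell at 28 days, both against undifferentiated cells. Over all genes 18.2% rose and 17.5% fell at 14 days, and 20.4% rose and 19.5% fell at 28 days. Between 14 and 28 days none of the 14 was called by limma, against 7.39% of all genes (at an unadjusted p under 0.05 there were 2, Fosl2 and Jund). Maf, a large MAF factor, rose by 1.13 at 14 days (SE 0.07, adjusted p = 4.98e-07) and 1.16 at 28 days, and the small MAF gene Maff rose by 0.40 and 0.49 at the same times. Atf5 was at -0.55 and -0.45, Jdp2, which encodes a repressor of AP-1, at -0.51 and -0.53, Fosl2, which encodes the FOS relative FRA2, at -0.39 and -0.25, and Atf4, the stress factor needed for osteoblast function, at -0.36 and -0.25, all called at both times. Jund, which encodes the steadily expressed JUN relative, rose by 0.26 at 28 days (adjusted p = 0.022). Mafk was at 0.19 and 0.14, called at both times, and Batf, Batf2, Batf3, Atf2, Atf7 and Mafg were not called in any comparison.

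**Figure D3:**
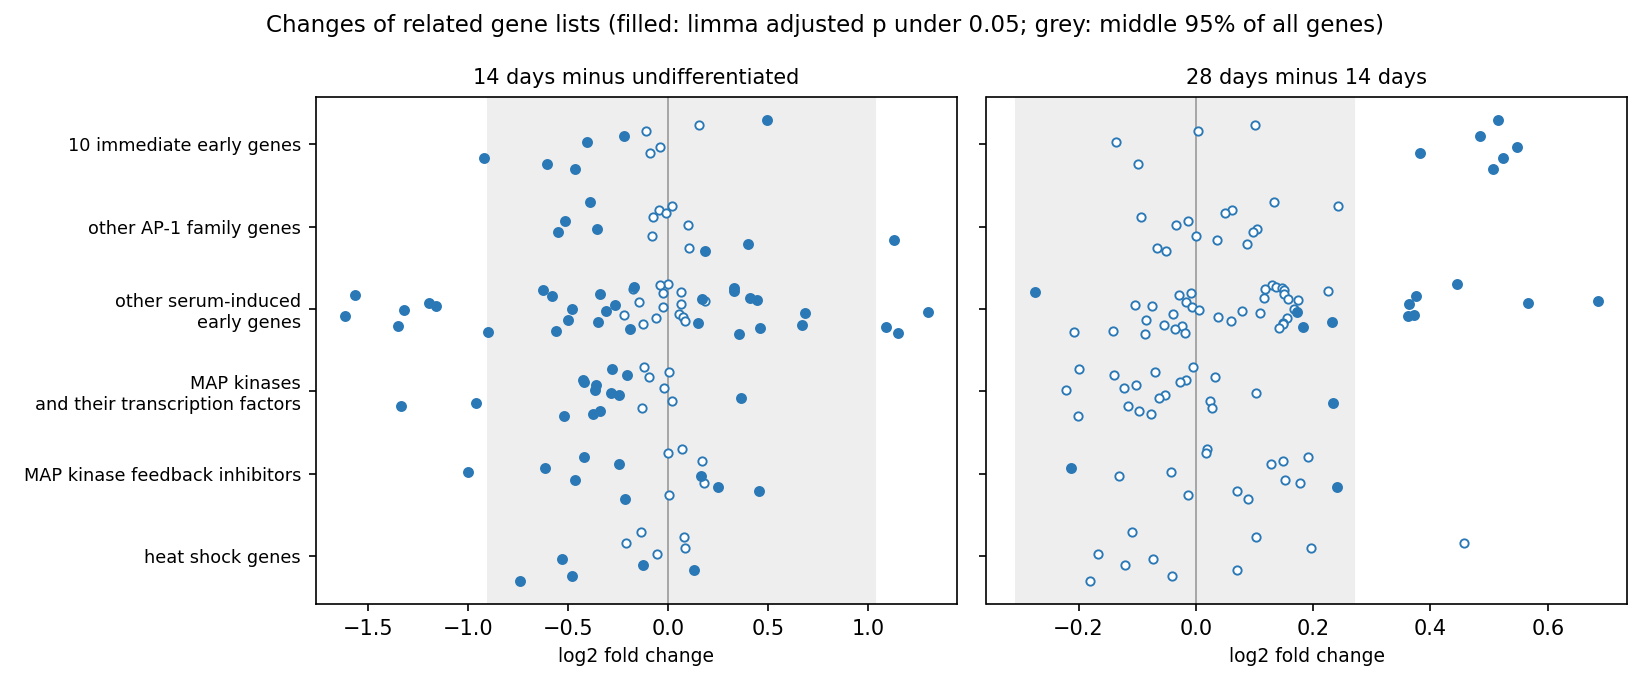
Log2 fold changes (horizontal axis, scaled separately in each panel) of the 10 immediate early genes and of 5 related lists (vertical axis), at 14 days minus undifferentiated and at 28 days minus 14 days. Filled points were called at a limma adjusted p under 0.05, the grey band holds the middle 95% of all genes, and in the right panel the 6 called members lie beyond the band.

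Other serum-induced early genes were called in both directions against undifferentiated cells. Of 46 measured, 13 rose and 18 fell at 14 days, against 18.2% up and 17.5% down over all genes. At 28 days 16 rose and 17 fell, against 20.4% up and 19.5% down over all genes. The list medians were -0.05 and -0.0080, against 0.0048 and 0.02 over all genes. Ccn1, which encodes a matricellular protein, was at -1.61 and -1.25, Myc at -1.57 and -1.59 and Phlda1 at -1.35 and -1.38, while Sgk1, a kinase gene that glucocorticoids also induce, rose by 1.30 and 1.47. Between 14 and 28 days 10 of the 46 rose (21.7%, against 2.72% of all genes) and 1, Klf4, fell by 0.27, with a list median of 0.12. The 10 were Arc, Btg2, Ccn1, Egr3, Errfi1, Hbegf, Nfkbiz, Ptgs2, Sgk1 and Zfp36, named here after their values were seen. Btg2, an antiproliferative gene, rose by 0.69 (SE 0.07, adjusted p = 0.000341), Ptgs2, the inducible cyclooxygenase gene, by 0.57 (adjusted p = 0.000161) and Zfp36, which encodes a protein that speeds the decay of such messages, by 0.38 (adjusted p = 0.0182). Ptgs2 and Zfp36 had both fallen at 14 days against undifferentiated cells, by 1.19 and 0.58 on the log2 scale.

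Genes of the pathway known to induce immediate early genes were mostly lower in induced cells. Of 20 MAP kinase and associated factor genes 1 rose and 13 fell at 14 days, with a median of -0.28, against 18.2% up, 17.5% down and a median of 0.0048 over all genes. At 28 days 1 rose and 14 fell, with a median of -0.39, against 20.4% up, 19.5% down and a median of 0.02 over all genes. Srf, which encodes serum response factor, was at -0.96 (SE 0.05, limma adjusted p = 1.12e-07) at 14 days and -0.73 at 28 days, and it was the 1 gene of the list called between 14 and 28 days, with a rise of 0.23 (adjusted p = 0.0192). Mrtfa, which encodes an actin-controlled coactivator of SRF, was at -1.33 and -1.45, and the kinase genes Rps6ka5 and Map2k6 were at -0.52 and -0.72 and at -0.36 and -0.58. Of 14 feedback inhibitors 3 rose and 6 fell at 14 days, against 18.2% up and 17.5% down over all genes. At 28 days 4 rose and 4 fell, against 20.4% up and 19.5% down. Dusp10 was at -1.0 and -1.04, Dusp8 at -0.61 and -0.82, Spred1 at 0.46 and 0.53 and Spry4 at 0.25 and 0.49. Spry4 rose and Dusp8 fell between 14 and 28 days, when 2.72% of all genes rose and 4.67% fell. Nab1, which encodes a corepressor of EGR proteins, was at -0.42 and -0.29, and Rxra and Rxrg, receptor partners of NR4A proteins, rose by 0.18 and 0.16 at 28 days.

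Several measures moved beside these changes, and their part in them was not tested. All 7 glucocorticoid-responsive genes rose at 14 and at 28 days against undifferentiated cells, with medians of 1.5 and 1.65, and 1, Sgk1, rose between 14 and 28 days. All 7 cell division genes fell in the 3 comparisons, with medians of -1.93, -2.92 and -0.95. Over all genes 18.2% rose and 17.5% fell at 14 days, and 20.4% rose and 19.5% fell at 28 days. Between 14 and 28 days 2.72% rose and 4.67% fell. Of 10 heat shock genes 1 rose and 4 fell at 14 days, against 35.7% of all genes called, and 2 rose and 5 fell at 28 days, against 39.9%. None of the 10 was called between 14 and 28 days, against 7.39% of all genes (at an unadjusted p under 0.05 there were 4). Hspd1 was at -0.74 and -0.92, Hsph1 at -0.53 and -0.60, Hspe1 at -0.48 and -0.52 and Hsp90aa1 at -0.12 and -0.24 against undifferentiated cells. Between 14 and 28 days the median of the 10 heat shock genes was -0.06, with changes from -0.18 to 0.46. The highest was Hspa8, named after its values were seen (limma adjusted p = 0.0623). The arrays of both states did not overlap for 5 of the 10, Hspa8 among them, against 24.4% of all genes.

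Centred values hold no level, so the presence of a cell type cannot be read from them, and the markers are given as changes. Of 7 osteoblast markers Alpl rose and Col1a1 fell at both times against undifferentiated cells, and Sp7, Bglap, Ibsp, Dmp1 and Phex were not called. Of 7 stromal markers 3 rose and 1 fell at each time. Over all genes 18.2% rose and 17.5% fell at 14 days, and 20.4% rose and 19.5% fell at 28 days. Of 7 macrophage markers Cd14, Csf1r and Cd68 rose at both times, with changes of the 7 from -0.13 to 2.56 at 14 days and to 2.74 at 28 days, while Ptprc, the leukocyte marker, was at 0.04 and -0.0057. Between 14 and 28 days 2 of the 7 macrophage markers rose, against 2.72% of all genes. Cd68 rose by 0.45 (limma adjusted p = 0.00415) and Csf1r by 0.29 (adjusted p = 0.0109), and Cd14 was at 0.18 (adjusted p = 0.224). In that comparison the stromal marker Nt5e rose by 0.50 (adjusted p = 0.00108) and Cd44 fell by 0.30 (adjusted p = 0.0341). These changes stand beside the late rise of the 6 immediate early genes. Of 5 endothelial markers 3 rose at 14 days and 4 at 28 days, of 5 adipocyte markers Fabp4 alone rose, and none of 5 osteoclast and 2 lymphoid markers was called by limma in the 3 comparisons (at an unadjusted p under 0.05 there was 1, Dcstamp at 28 days against undifferentiated cells). In bulk RNA, a change in the number of cells of a kind and a change in RNA per cell cannot be told apart, and their part in the results above was not tested.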

How the data were processed

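Total RNA of 9 MSC2 cultures was measured on 9 arrays, 3 for each state, with an average RNA integrity number of 9.9 per the labels. The deposited log2 values were made by the authors with RMA, per the submitters' processing notes, with no version named. Base 2 is assumed, that of RMA. All 33794 probe sets had a median of 0 over the 9 arrays, so they were centred, by a step that no source used here describes. A higher value is taken as more RNA.

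GEO's platform annotation gave 1 gene symbol for 23521 probe sets, several for 1814 and none for 8459, and the last 2 kinds were not used. Probe sets of a gene were averaged, which left 22180 genes. limma 3.58.1 in R 4.3.3 fitted the 3 states over all arrays with moderated two-sided tests and Benjamini-Hochberg adjustment over all genes, and calls were made at an adjusted p under 0.05. The script was tested on simulated data. The series text calls the replicates independent. Where cultures were not grown apart, p-values measure only the spread between these arrays, and the number of arrays limits the precision.

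The 10 genes and the lists were chosen with earlier results of these data known. Named were the 10 genes, the other AP-1 genes, up to 4 called genes of each other list with the largest change against undifferentiated cells, and the genes closest to each member that passed the F test. Genes named beyond that are marked as such or belong to the control, marker, EGR and NR4A sentences. Alternatives were each array left out, the replicate block, quantile normalization again, the most variable probe set, no genes tied within a state, robust variance, a test against a 1.5-fold change, the compared states alone and an adjusted p under 0.01.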

Additional observations from a re-analysis of the deposited data

How the results depend on the processing

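Most calls on the 10 genes kept their side of the threshold. Against a 1.5-fold change, 1582 genes were called at 14 days and 2010 at 28 days against undifferentiated cells and 28 between 14 and 28 days, with 1, 1 and 0 of the 10 genes. After quantile normalization again 5729 genes and 5 of the 10, 3 up and 2 down, were called at 28 days against undifferentiated cells. At an adjusted p under 0.01, 813 genes and 4 of the 10 were called between 14 and 28 days, with Fos and Ier2 lost. Leaving out 1 array gave 991 to 1573 genes between 14 and 28 days, lowest without day-14 replicate 1 (991) and replicate 2 (1017), and 6, 7 to 8 and 5 to 6 of the 10 genes in the 3 comparisons.

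No difference that was called changed its sign. Egr1 at 14 days ran from -0.085 to 0.0084 over the arrays left out, above 0 without day-14 replicate 1, and Ier2 at 28 days from -0.066 to 0.11, below 0 without day-28 replicate 3 (-0.07), both against undifferentiated cells. Jun between 14 and 28 days ran from -0.045 to 0.071, at -0.04 without day-14 replicate 2, -0.045 without day-28 replicate 1 and -0.01 without day-28 replicate 2. The cause was not tested.

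With the replicate number as a block, 7846, 8726 and 1390 genes and 6, 7 and 6 of the 10 were called, with Fosb lost at 28 days against undifferentiated cells (adjusted p = 0.0535) and no other call of the 10 genes changed. No pairing of the arrays by number was visible. Deviations of same-numbered arrays correlated at -0.14 to 0.07, 0 of 9 pairs over 0.1, and 4 of 9 arrays correlated best with an array of their own number. Such values cannot show that the cultures were unpaired.

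Each gene rests on 1 probe set and 3 arrays a state, and the centred values give no signal over background, so dim probe sets could not be set aside.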
